A study of Homo sapiens with 6 samples.

Results

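Expression of 37 lysosomal genes was examined in NCI-H1299, an established human lung carcinoma cell line, after silencing of CFB, the gene of complement factor B. The genes were taken by name: 2 transcription factors of the lysosomal gene programme (TFEB and TFE3), 6 proteins of the lysosomal membrane, 7 proteases, 10 glycosidases and related enzymes including 1 sulfatase, 2 lipid hydrolases, 3 soluble cofactors and carriers, the autophagy receptor SQSTM1, and 6 proteins of the vacuolar proton pump, the V-ATPase. All 37 are among the 28495 genes of the deposited table, and 35 had a mean of at least 0.5 FPKM (fragments counted on a gene, scaled to its length and to the depth of the library) and were tested. The rule for the genes is a list of names with no threshold on their values. Poly(A) RNA was sequenced from 3 libraries labelled shCFB and 3 labelled shNC, here called sh-CFB and sh-NC. All 6 carry a hairpin label and nothing else is said to separate the groups. The labels name neither the hairpin sequence nor the number of cell clones, and the table heads its columns with a small-interfering-RNA style of name, so the silencing reagent is taken only as the sample titles give it. Nothing says that the 3 libraries of a group came from separate cultures, so the p-values measure the spread between these libraries, which may be technical.

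Lysosomes break down proteins, glycans and lipids delivered by endocytosis and autophagy. Their hydrolases work at acid pH, which the V-ATPase maintains by pumping protons through a membrane sector (V0) with energy from ATP hydrolysed in a cytosolic sector (V1). Many of these genes carry a short E-box in their promoters that is bound by TFEB and TFE3, which are held in the cytosol by mTORC1 signalling at the lysosome and enter the nucleus when it falls.

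The libraries held 26.2 to 40.0 M reads, as recovered from the FPKM values. CFB itself was nearly silent in every library, with 0, 0 and 2 recovered reads in sh-CFB libraries 1, 2 and 3 against 1, 6 and 5 in the sh-NC libraries. The groups overlapped (exact permutation test, two-sided, p = 0.2), so the table gives no firm check of the silencing. Of 6 lung adenocarcinoma lineage markers, 5 were under 0.5 FPKM in every library (the 6th, KRT7, reached 1.79), while among 5 epithelial markers KRT8 and KRT18 were present and 3 were under 0.5. The 6 macrophage markers in the table, all under 0.5, reached at most 0.0758 FPKM. Libraries sh-CFB 1 and sh-NC 1 stood farthest apart from the rest: across all tested genes, deviation from the 6-library mean rose with GC content in sh-CFB 1 (Spearman 0.60, across genes) and fell with it in sh-NC 1 (-0.55).

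Of the 35 tested lysosomal genes, 1 rose in the sh-CFB libraries (GAA), none fell, and 34 did not pass the test (limma on log2(FPKM + 0.5), Benjamini-Hochberg adjusted p under 0.05 over all 12466 tested genes). That is 2.86% of the members, against 7.45% of all tested genes (1.74% higher and 5.71% lower). At an unadjusted p under 0.05 the members numbered 11, with 4 higher (GAA, MAN2B1, NEU1 and GRN) and 7 lower (LAMP1, MCOLN1, CTSL, GLA, PPT1, ATP6V0D1 and ATP6V1H), while 25.9% of all tested genes reached that level. limma's voom on the recovered reads, scaled by the same library totals, also called 1 member higher and 0 lower. Scaled by median-of-ratios factors it called 0, as did limma on FPKM with those factors or with a replicate block. Fold changes of the members ran from -0.52 to 0.55 on the log2 scale with a median of -0.05, and the median of all tested genes was -0.15. A log2 fold change here is the difference of mean log2(FPKM + 0.5), positive where sh-CFB is higher, and understates the change of weakly expressed genes. With bulk RNA, fewer cells expressing a gene and less RNA per cell cannot be told apart.

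In 14 of the 35 genes (40%) the libraries of both groups did not overlap, against 33.7% of all tested genes. sh-CFB was higher in 6 of them: HEXA, NAGLU, NEU1, GAA and MAN2B1, which are glycosidases, and GRN. It was lower in 8: LAMP1, MCOLN1, CTSL, GLA, GUSB, PPT1, ATP6V0D1 and ATP6V1H. The corresponding shares of all tested genes were 10% higher and 23.6% lower.

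**Figure D1:**
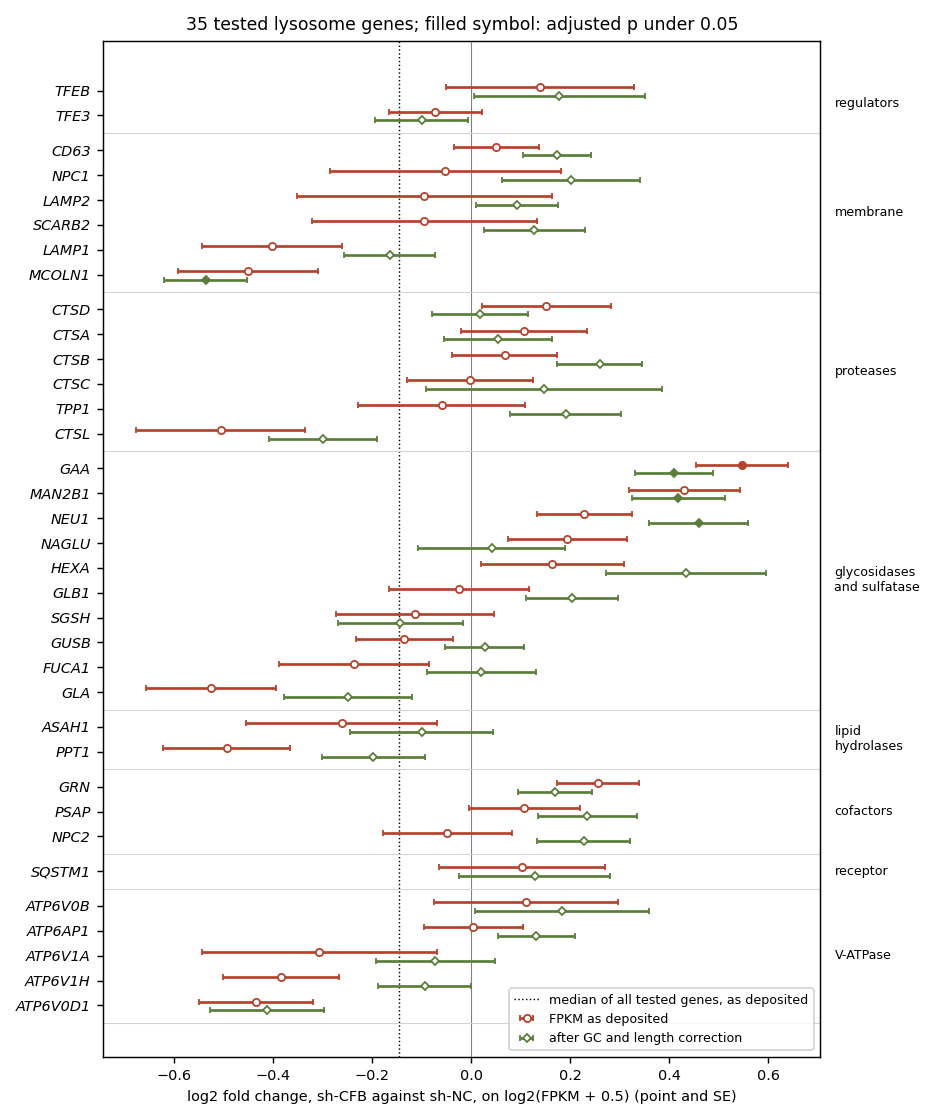
Log2 fold change (sh-CFB against sh-NC) of the 35 tested lysosomal genes by role, with the standard error of the limma fit, for FPKM as deposited (circles) and after the GC and length correction (diamonds); filled symbols have an adjusted p under 0.05 and the dotted line is the median of all tested genes. As deposited, GAA at 0.55 is filled, and after the correction GAA, MAN2B1, NEU1 and MCOLN1 are.

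The glycosidases, which cut sugars from glycoproteins, glycolipids and glycogen, held the gene that rose. GAA encodes acid alpha-glucosidase, the enzyme of lysosomal glycogen breakdown that is deficient in Pompe disease (ENSG00000171298, GRCh38 chromosome 17, 80101556 to 80119879, forward strand). GAA was at 29.6, 26.3 and 28.7 FPKM in sh-CFB libraries 1, 2 and 3 and at 19.1, 19.8 and 18.5 in sh-NC libraries 1, 2 and 3. Every sh-CFB library was above every sh-NC library, with means of 28.2 ± 1.68 and 19.1 ± 0.656 FPKM (SD, n = 3 each). The log2 fold change was 0.55 (SE 0.09), a fold change of 1.46, with an adjusted p of 0.0182 by limma. An exact permutation test of GAA alone gave p = 0.1, two-sided, the smallest that 3 against 3 libraries allow. The call did not hold without sh-CFB 2 (log2 fold change 0.59, adjusted p 0.0654), sh-CFB 3 (0.53, 0.0591), sh-NC 1 (0.55, 0.0615) or sh-NC 2 (0.57, 0.103), and the direction was the same in each. Calls over all tested genes fell in these fits too, from 929 to 39, 400, 249 and 20 in the same order. Without both replicate 1 libraries the GAA call held (0.51, adjusted p 0.0364).

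MAN2B1 and NEU1, picked after their values were seen, are described with GAA because each passes the test once fold changes are corrected for GC content and gene length. MAN2B1, the lysosomal alpha-mannosidase that trims mannose from glycoproteins, was at 23.9, 21.0 and 20.7 FPKM in the sh-CFB libraries and at 14.6, 17.5 and 16.2 in the sh-NC libraries. The groups did not overlap, and the log2 fold change was 0.43 (SE 0.11, limma adjusted p 0.0581), or 0.42 with the correction (adjusted p 0.0342). NEU1, the lysosomal sialidase, was at 17.4, 15.9 and 17.03 FPKM against 14.4, 14.7 and 13.6. The groups did not overlap here either, and the log2 fold change was 0.23 (SE 0.10, adjusted p 0.181), or 0.46 with the correction (adjusted p 0.0319). Under this correction GAA had a log2 fold change of 0.41 and an adjusted p of 0.0226, and 4.84% of all tested genes were called higher. The correction also takes out the overall level of each library, and with it the median of all tested genes went from -0.15 to 0.01. The parts of this recentring, of GC content and of length in a single shift were not separated.

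The other 7 genes of the glycosidase class ran from -0.52 to 0.19 and none passed the test. GLA, the alpha-galactosidase A that is deficient in Fabry disease, had the lowest log2 fold change of all 35 members. GLA was at 3.502, 3.88 and 3.99 FPKM in sh-CFB against 5.45, 5.29 and 6.30 in sh-NC. Its groups did not overlap. Its log2 fold change was -0.52 (SE 0.13, adjusted p 0.0536) and -0.25 with the GC and length correction (adjusted p 0.248). HEXA, a subunit of beta-hexosaminidase, and NAGLU, an enzyme of heparan sulfate breakdown, were at 0.16 and 0.19 with groups that did not overlap. The beta-galactosidase GLB1 was at -0.02 and the sulfamidase SGSH at -0.11, with overlapping groups. GUSB, the beta-glucuronidase often used as a reference gene, was at -0.13, and the fucosidase FUCA1 at -0.24.

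**Figure D2:**
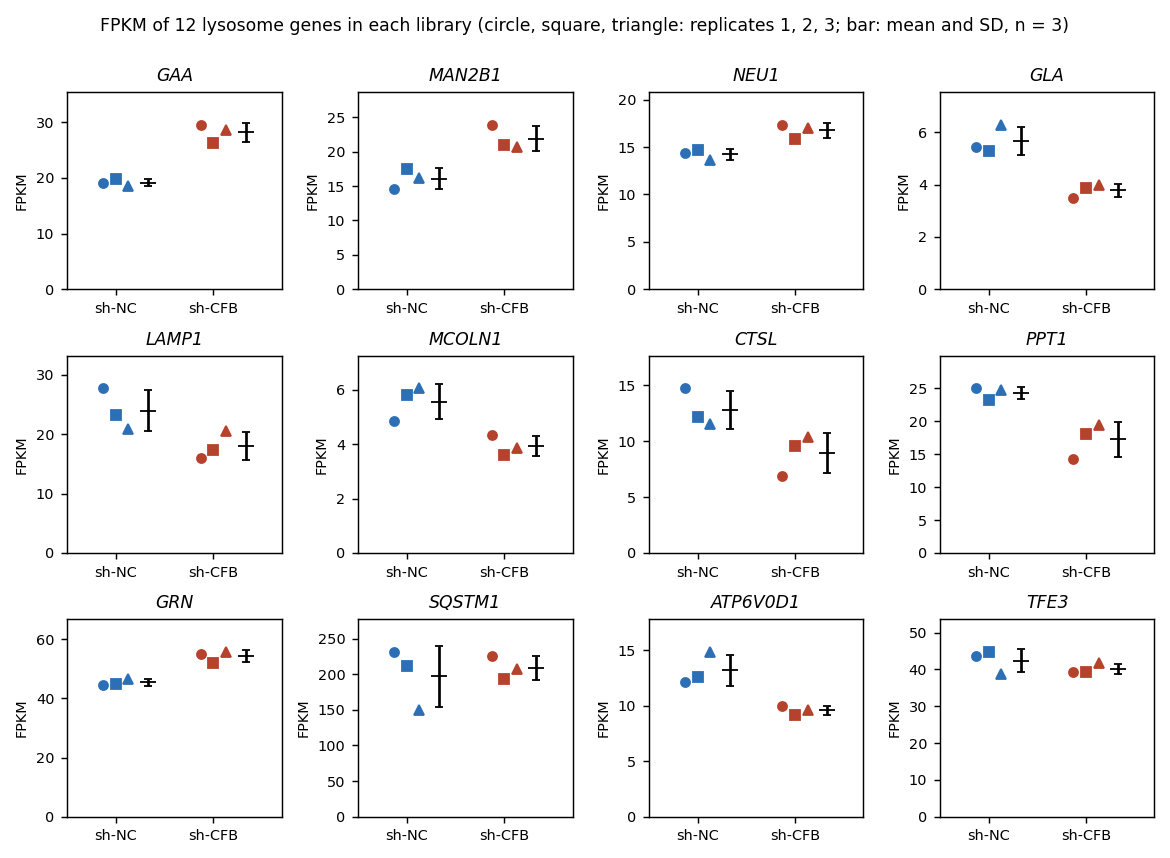
FPKM of 12 lysosomal genes in each library on linear axes from 0, with circle, square and triangle for replicates 1, 2 and 3 and a bar for the mean and SD (n = 3). sh-CFB lies above sh-NC in GAA, MAN2B1, NEU1 and GRN and below it in GLA, LAMP1, MCOLN1, CTSL, PPT1 and ATP6V0D1, and the groups overlap in SQSTM1 and TFE3.

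The promoters of GAA, MCOLN1, NEU1, MAN2B1 and ATP6V0D1 are shown because these are the 5 members past the test in at least 1 of the fits that were run. Each stretch is the 150 bases before the RefSeq start (GRCh38.p14), 5' to 3' on the strand of the gene, with every match to TCACGTG on either strand in capitals. The stretches are chr17:80101431-80101580, forward strand for GAA, chr19:7522474-7522623, forward strand for MCOLN1, chr6:31862822-31862971, reverse strand for NEU1, chr16:67481158-67481307, reverse strand for ATP6V0D1 and chr19:12666743-12666892, reverse strand for MAN2B1.

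GAA: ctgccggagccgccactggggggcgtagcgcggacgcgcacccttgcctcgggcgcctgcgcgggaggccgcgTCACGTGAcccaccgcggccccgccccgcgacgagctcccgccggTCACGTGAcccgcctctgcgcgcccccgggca

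MCOLN1: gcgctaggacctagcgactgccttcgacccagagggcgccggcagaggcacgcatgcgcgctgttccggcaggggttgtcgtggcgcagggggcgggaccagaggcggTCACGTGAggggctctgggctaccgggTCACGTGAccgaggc

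NEU1: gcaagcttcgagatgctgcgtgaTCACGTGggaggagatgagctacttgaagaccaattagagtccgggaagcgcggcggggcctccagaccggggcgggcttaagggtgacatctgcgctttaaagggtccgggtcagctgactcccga

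ATP6V0D1: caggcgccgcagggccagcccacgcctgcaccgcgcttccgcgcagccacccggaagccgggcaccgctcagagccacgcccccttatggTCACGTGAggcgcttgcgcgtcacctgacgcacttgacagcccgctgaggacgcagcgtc

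MAN2B1: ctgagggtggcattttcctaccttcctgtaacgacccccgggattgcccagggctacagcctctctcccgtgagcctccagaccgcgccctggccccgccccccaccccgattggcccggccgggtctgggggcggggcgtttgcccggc

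RefSeq promoter windows, from 250 bases before to 50 after the start, were found for 28 of the 37 members. TCACGTG, the core of the E-box that TFEB and TFE3 bind, is in 8 of these 28 (28.6%), namely GAA, NEU1, CTSD, CTSA, ATP6V0B, LAMP1, ATP6V0D1 and MCOLN1. It is in 3.71% of all 35116 RefSeq promoter windows, a share of windows and not of genes. Counted by gene, as for the members, it is in 7.84% of the 9026 tested genes with a window. A gene counts if any of its windows holds the letters, and 5 members have several windows. The shorter CACGTG, which every TCACGTG holds, is in 9 of 28 members (CD63 in addition), in 7.26% of all windows and in 13.3% of the tested genes with a window. GAA and MCOLN1 each hold it at 2 places that read TCACGTG on both strands, which begin 77 and 32 bases before the GAA start and 42 and 15 bases before that of MCOLN1. The MAN2B1 stretch holds neither. The 8 genes with TCACGTG did not share a direction: GAA was at 0.55, NEU1 at 0.23, CTSD at 0.15, CTSA at 0.11, ATP6V0B at 0.11, LAMP1 at -0.40, ATP6V0D1 at -0.43 and MCOLN1 at -0.45 on the log2 scale. A match describes the sequence and shows no binding. The members were chosen by name as lysosomal genes, many of which carry this E-box, so the share is no test of these data.

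Neither regulator passed the test. TFEB was weakly expressed, at 1.09, 0.575 and 0.813 FPKM in the sh-CFB libraries and 0.615, 0.710 and 0.745 in the sh-NC libraries. The groups overlapped, and its log2 fold change was 0.14 (SE 0.19, limma adjusted p 0.692). TFE3 was far higher, at 39.4, 39.3 and 41.8 FPKM in sh-CFB against 43.6, 44.7 and 38.8 in sh-NC. These groups overlapped too, with a log2 fold change of -0.07 (SE 0.09, adjusted p 0.673). Of the other factors of this family, MITF was below 0.5 FPKM in every library. RNA levels do not report where the TFEB and TFE3 proteins were in the cell.

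None of the 6 membrane proteins passed the test, and their median log2 fold change was -0.09. At an unadjusted limma p under 0.05, 2 of the 6 were lower, a level that 25.9% of all tested genes reached in either direction. MCOLN1, the TRPML1 channel that releases calcium from the lysosome (ENSG00000090674, chromosome 19, 7522626 to 7534009), had the smallest p of this class. MCOLN1 was at 4.33, 3.61 and 3.85 FPKM in the sh-CFB libraries and at 4.84, 5.81 and 6.05 in the sh-NC libraries. The groups did not overlap. Its means were 3.93 ± 0.369 and 5.56 ± 0.643 FPKM (SD, n = 3 each), and its log2 fold change was -0.45 (SE 0.14, limma adjusted p 0.0968). With the GC and length correction MCOLN1 was at -0.54 and passed (adjusted p 0.0135, with 6% of all tested genes called lower). It also passed when both replicate 1 libraries were left out (-0.60, adjusted p 0.042, with 4.24% of all tested genes called lower).

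LAMP1, the main glycoprotein lining the lysosomal membrane, was at 15.98, 17.4 and 20.6 FPKM against 27.7, 23.3 and 20.9. The groups stood just apart, as sh-CFB 3 and sh-NC 3 were nearly level, and the log2 fold change was -0.40 (SE 0.14, adjusted p 0.126) or -0.16 with the correction. The remaining membrane proteins had overlapping groups: LAMP2 was at -0.09, the glucocerebrosidase receptor SCARB2 at -0.10, the cholesterol exporter NPC1 at -0.05 and the tetraspanin CD63 at 0.05. CD63 was one of the most abundant members, between 199.5 and 219 FPKM in all 6 libraries.

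No protease passed the test among the 6 that were measured well enough, and their median log2 fold change was 0.03. At an unadjusted limma p under 0.05, 1 of the 6 was lower, a level that 25.9% of all tested genes reached in either direction. CTSL, the cysteine protease cathepsin L, had the smallest p, at 6.91, 9.58 and 10.4 FPKM in sh-CFB against 14.7, 12.1 and 11.6 in sh-NC. Its groups did not overlap, and its log2 fold change was -0.51 (SE 0.17, limma adjusted p 0.115) or -0.30 with the correction (adjusted p 0.121). The others had overlapping groups: the aspartic protease CTSD was at 0.15, CTSA, which protects NEU1 and GLB1 from degradation, at 0.11, CTSB at 0.07, CTSC, the activator of granule proteases, at -0.00 and the tripeptidyl peptidase TPP1 at -0.06. The intracellular CTSB was the most abundant, between 28.3 and 35.2 FPKM.

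The lipid hydrolases, the cofactors and SQSTM1 held no call. PPT1, which removes palmitate from proteins, was at 14.3, 18.1 and 19.4 FPKM in sh-CFB against 25.0, 23.2 and 24.7 in sh-NC. Its groups did not overlap, with a log2 fold change of -0.49 (SE 0.13, limma adjusted p 0.0588) that was -0.20 with the correction. The acid ceramidase ASAH1 was at -0.26 with overlapping groups. GRN, progranulin, which is processed in the lysosome into granulins, was at 55.2, 52.1 and 55.6 FPKM against 44.6, 45.0 and 46.7. The groups of GRN were apart, and its log2 fold change was 0.26 (SE 0.08, adjusted p 0.105). PSAP, the precursor of the saposins that present sphingolipids to hydrolases, was the most abundant member at 282, 306 and 340 FPKM in sh-CFB against 313, 279 and 269 in sh-NC, and its groups overlapped (0.11). The cholesterol carrier NPC2 was at -0.05. SQSTM1, the receptor p62 that brings ubiquitinated cargo to autophagosomes, was at 226, 193 and 208 FPKM against 231, 212 and 149, with overlapping groups and a log2 fold change of 0.10 (SE 0.17, adjusted p 0.744).

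In the V-ATPase, 5 of 6 listed proteins were tested, none passed, and their median log2 fold change was -0.31. At an unadjusted limma p under 0.05, 2 of the 5 were lower, a level that 25.9% of all tested genes reached in either direction. ATP6V0D1, the V0 subunit that joins the membrane sector to the central stalk, was at 10.01, 9.17 and 9.58 FPKM in sh-CFB against 12.2, 12.5 and 14.8 in sh-NC. The groups did not overlap, with means of 9.59 ± 0.419 and 13.2 ± 1.43 FPKM (SD, n = 3 each) and a log2 fold change of -0.43 (SE 0.11, limma adjusted p 0.0609). The GC and length correction left it at -0.41 (adjusted p 0.0616), and it passed when libraries were scaled to equal totals (-0.49, adjusted p 0.038, with 5.21% of all tested genes called lower). The V1 subunit ATP6V1H was at -0.38 with groups apart (adjusted p 0.0895), but at -0.09 with the correction. The catalytic ATP6V1A was at -0.31 with overlapping groups, the accessory protein ATP6AP1 at 0.00, and the V0 ring subunit ATP6V0B at 0.11.

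A further 15 subunits, accessory and assembly proteins of the pump were taken as a list. TCIRG1, an alternative V0 a subunit known for its role in osteoclasts, rose: it was at 16.2, 13.2 and 14.05 FPKM in sh-CFB against 8.42, 8.32 and 8.92 in sh-NC. Its groups were well apart, with a log2 fold change of 0.72 (SE 0.11, limma adjusted p 0.0148) that was 0.55 with the correction (adjusted p 0.0111). The call was lost without sh-CFB 2 (0.78, adjusted p 0.0601), sh-NC 1 (0.71, 0.0502) or sh-NC 2 (0.70, 0.0973). ATP6V1B2 and ATP6V1E1, a nucleotide-binding and a stalk subunit of V1, fell. ATP6V1B2 was at 3.08, 4.34 and 4.87 FPKM against 7.74, 7.50 and 6.81, a log2 fold change of -0.79 (SE 0.17, adjusted p 0.0374) or -0.57 with the correction (adjusted p 0.0309). ATP6V1E1 was at 14.2, 14.1 and 18.0 FPKM against 22.6, 23.2 and 21.5, a log2 fold change of -0.54 (SE 0.12, adjusted p 0.0407) or -0.25 with the correction (adjusted p 0.153). The ATP6V1B2 call was lost without sh-CFB 2 (adjusted p 0.104), sh-NC 1 (0.11), sh-NC 2 (0.161) or sh-NC 3 (0.0644). ATP6V1E1 passed in 4 of the 19 alternative fits, and of those that leave out 1 library only in the fit without sh-CFB 3 (adjusted p 0.0417; 0.069 to 0.177 in the others).

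Over the 17 tested subunits and accessory proteins of the pump, from both lists, 1 rose and 2 fell (17.6% called, against 7.45% of all tested genes, 1.74% higher and 5.71% lower), and 9 had groups apart (1 higher and 8 lower, 52.9% against 33.7% of all tested genes). Their median was -0.31, against -0.15 for all tested genes. With the GC and length correction it was -0.07, against 0.01 for all tested genes. The pump's median thus moved toward 0 with that correction, under which TCIRG1 was at 0.55, ATP6V0D1 at -0.41 and ATP6V1B2 at -0.57.

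**Figure D3:**
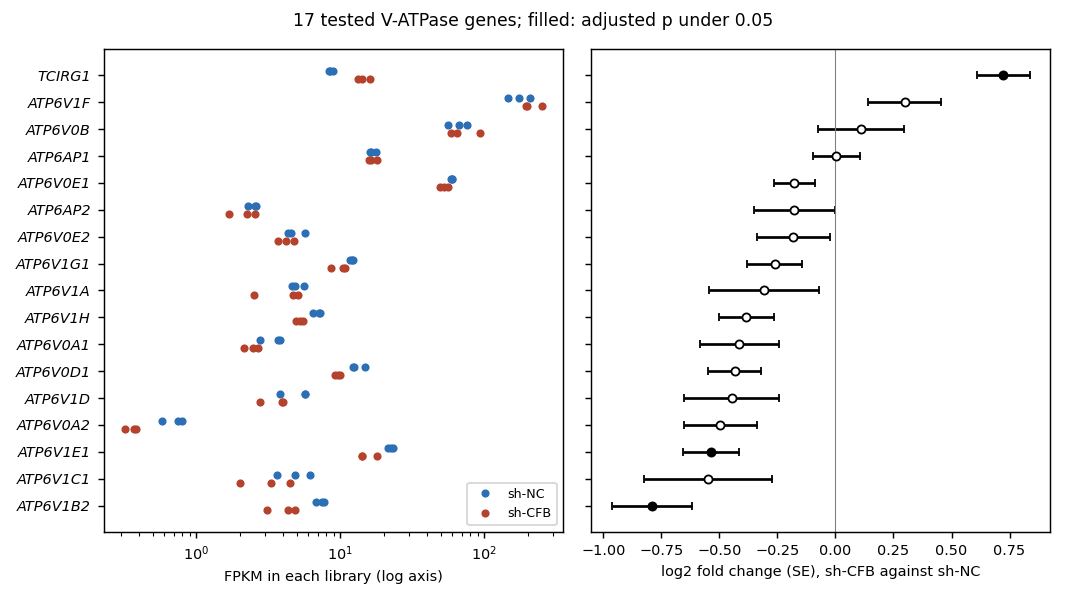
The 17 tested V-ATPase genes: FPKM of each library on a log axis (left) and the log2 fold change with its standard error, from FPKM as deposited (right; filled symbols have an adjusted p under 0.05). TCIRG1 lies at 0.72, and ATP6V1E1 and ATP6V1B2 at -0.54 and -0.79, and 13 of the 17 lie below 0.

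The lysosomal pathway outside the 37 genes was read from 7 lists that hold 138 genes, of which 137 are in the table and 126 were tested. In these 2 rose and 7 fell (7.14%, against 7.45% of all tested genes), and their median log2 fold change was -0.17. Leaving out 1 library left between 0 and 2 higher calls and between 0 and 4 lower calls: without sh-CFB 2 or without sh-NC 2 there were none, and without sh-NC 1 there were 0 higher and 2 lower. Without both replicate 1 libraries there were 2 higher and 4 lower. Calls over all tested genes, 929 in the main fit, numbered 20 to 540 with 1 library left out.

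Beside the pump, CTSF, the cysteine protease cathepsin F, rose among 22 tested hydrolases (log2 fold change 0.66, SE 0.11, limma adjusted p 0.0193), and the other 21 did not pass. That is 4.55% of the list, against 1.74% of all tested genes called higher. The CTSF call was lost without sh-CFB 2 (adjusted p 0.0574), sh-CFB 3 (0.0625), sh-NC 1 (0.065) or sh-NC 2 (0.115). Among 22 membrane proteins and transporters, LAPTM4B fell (-0.64, SE 0.10, adjusted p 0.0138), a call lost without sh-CFB 2 (0.0666) or sh-NC 2 (0.0845). It was the only call of that list (4.55%, against 5.71% of all tested genes called lower). Of 11 genes of mannose 6-phosphate sorting, the route by which new hydrolases reach the lysosome, the clathrin adaptor subunit AP1B1 fell (-0.47, SE 0.09, adjusted p 0.0254). That is 9.09% of the list, against 5.71% of all tested genes called lower. AP1B1 held without sh-CFB 1 (adjusted p 0.0415) but not without any other single library (0.0551 to 0.152).

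Among 19 genes of nutrient sensing at the lysosome, 2 fell (10.5%, against 5.71% of all tested genes called lower). RRAGA, a Rag GTPase that brings mTORC1 to the lysosomal surface, was at 11.4, 12.4 and 15.8 FPKM in sh-CFB against 25.1, 24.1 and 23.4 in sh-NC. Its groups were well apart, with a log2 fold change of -0.87 (SE 0.13, limma adjusted p 0.0137), or -0.70 with the correction (adjusted p 0.0179). RRAGA was lost without sh-CFB 2 (adjusted p 0.0654) or sh-NC 2 (0.0879). RHEB, the GTPase that activates mTORC1, was at -0.39 (SE 0.09, adjusted p 0.0482), and at -0.11 with the correction (adjusted p 0.442). RHEB passed in 2 of the 19 alternative fits and in none that left out 1 library (adjusted p 0.0726 to 0.173). Among 22 autophagy genes, 1 fell (4.55%, against 5.71% of all tested genes called lower). This was MAP1LC3B, a ubiquitin-like protein of the autophagosome membrane (-0.79, SE 0.19, adjusted p 0.0482). Its libraries were at 15.0, 16.6 and 20.2 FPKM in sh-CFB against 39.3, 28.98 and 23.8 in sh-NC, and the correction gave -0.54 (adjusted p 0.0542). MAP1LC3B passed in 3 of the 19 alternative fits, and of those that leave out 1 library only in the fit without sh-NC 3 (adjusted p 0.0411; 0.0691 to 0.162 in the others). None of 15 genes of fusion and positioning passed by limma. At an unadjusted p under 0.05 there were 1 higher and 3 lower of the 15, and 25.9% of all tested genes reached that level in either direction.

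The GC and length correction changed which of these 126 genes passed, to 6 higher and 5 lower, where 4.84% of all tested genes were called higher and 6% lower. The calls of TCIRG1, CTSF, ATP6V1B2, AP1B1 and RRAGA held. LAPTM4B, ATP6V1E1, RHEB and MAP1LC3B no longer passed. SIDT2 (0.31), TMEM9 (0.47), GNPTG (0.39) and MAP1LC3A (0.33) were called higher in the corrected fit, and MTOR (-0.72) and VPS39 (-0.53) were called lower.

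GC content moved with the members' fold changes. The Spearman correlation across the 35 members, which share the same 6 libraries, was 0.45, against 0.31 across 12397 tested genes with a GC value, and -0.00 for the members after the correction. The 6 members higher in every sh-CFB library had a median GC content of 60.5%, the 8 that were lower had 51.8%, and the other 21 had 52.8%. Their GC ranges overlapped, at 47.0% to 64.4%, 45.7% to 62.0% and 37.3% to 64.0%. Within single libraries, the members' deviation from the 6-library mean correlated with GC content at 0.63 in sh-CFB 1 and -0.61 in sh-NC 1, and between -0.35 and 0.02 in the other 4. The part of GC content in any single fold change was not tested. With the correction 3 members were higher (GAA, MAN2B1 and NEU1) and 1 was lower (MCOLN1), 4 of 35 in all, where 10.8% of all tested genes were called. The median of the members was then 0.13, against 0.01 for all tested genes.

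**Figure D4:**
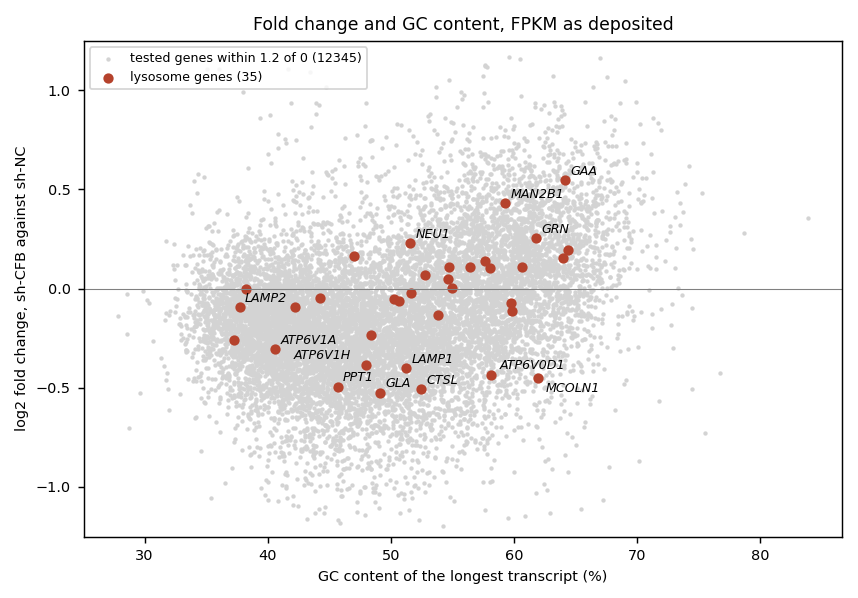
Log2 fold change against the GC content of the longest transcript for tested genes (grey) and the 35 lysosomal genes (red). GAA, MAN2B1 and GRN lie above 0 at 59% to 64% GC, and PPT1, GLA and LAMP1 lie below 0 at 46% to 51%. Other members lie the other way: MCOLN1 (62% GC) and ATP6V0D1 (58%) below 0, and NEU1 (52%) and HEXA (47%) above 0.

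The spread between libraries was shared by many members. sh-CFB 1 held the lowest of the 6 values for 16 of the 35 genes, while sh-NC 1 held the highest for 12 and sh-CFB 3 for 11. These counts are not given here for all tested genes. Over all tested genes the median deviation was -0.26, -0.01 and 0.03 in the sh-CFB libraries and 0.20, 0.07 and -0.02 in the sh-NC libraries. The members' median deviation was -0.09, -0.04 and 0.10 log2 in the sh-CFB libraries and 0.11, -0.02 and -0.07 in the sh-NC libraries. The groups overlapped in this median, which is not set against all tested genes. Against the all-gene median, the members lay above it in sh-CFB 1 and sh-CFB 3 and below it in sh-CFB 2 and every sh-NC library. Reads on the 37 genes made up 0.571%, 0.556% and 0.605% of the sh-CFB libraries and 0.607%, 0.569% and 0.512% of the sh-NC libraries, which also overlapped.

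**Figure D5:**
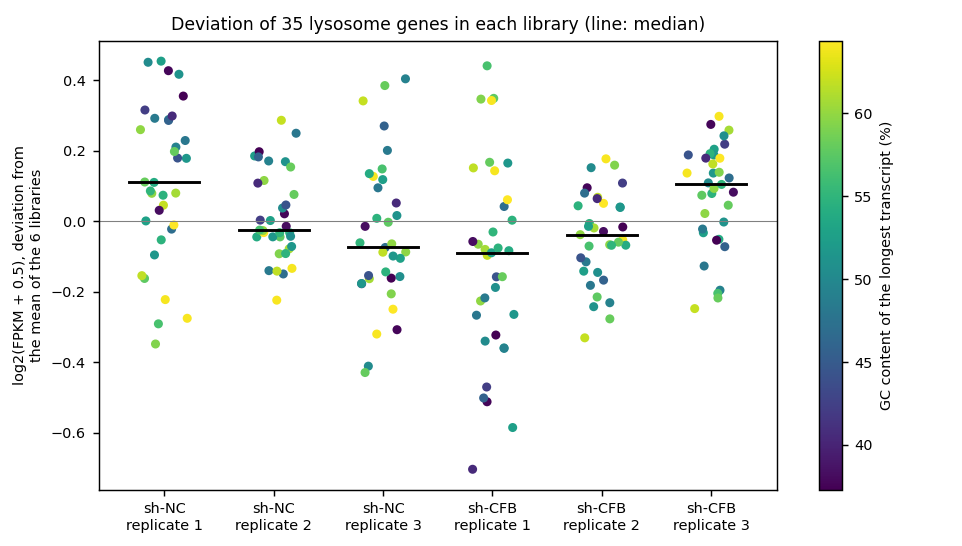
Deviation of each lysosomal gene from its 6-library mean of log2(FPKM + 0.5), by library, with the median as a line and GC content as colour. The medians, not set against all tested genes, lie between -0.09 and 0.11 and overlap between groups, and low-GC genes lie lowest in sh-CFB 1.

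The lowest count of a tested member in any library was 129 recovered reads, for TFEB in sh-CFB 2. Counting error, taken for each member at the library with its fewest reads, was 2.27% at the median and at most 8.80% (TFEB), while the spread between libraries of a group was 9.35% (sh-CFB) and 9.78% (sh-NC) at the median. For TFEB, the counting error at sh-CFB 2 was close to the spread between the sh-NC libraries (9.78%). It was well below the spread of TFEB between the sh-CFB libraries (31.2%). The first figures cover counting error only.

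The other 2 members could not be assessed. CTSZ, cathepsin Z, had 7, 9 and 18 reads in sh-CFB against 10, 15 and 7 in sh-NC, and the groups overlapped (exact permutation test, two-sided, p = 0.5). The gene length behind its FPKM was 19384 bases, against 2038 exonic bases in the GENCODE 29 annotation, and its neighbour NELFCD was at 0 to 6 reads. ATP6V0C, the main proton-carrying ring subunit of V0, had 4, 2 and 3 reads against 7, 5 and 1 (p = 0.9, exact permutation test, two-sided). In GENCODE 29, 862 of its 1498 exonic bases (57.5%) lie on the same strand as exons of AC093525.2. How reads shared between such genes were counted is not given in the sources used here, so these low values are not taken as absence of expression. Exons of 9 members overlap another gene on the same strand and those of 14 overlap one on the opposite strand. CTSD shares 1304 of its 3126 exonic bases (41.7%) with AC068580.4 on the same strand. MAN2B1 shares 704 of its 5374 exonic bases with AC010422.3, and PPT1 shares 1189 of 5088 with CAP1 on the opposite strand. The kit marks strand, but whether the counting used it is not given in the sources used here. For 6 members, GLA, CTSL and CTSD among them, the length used was more than 1.5 times the annotated one. The FPKM of these members are therefore lower than the annotated length would give, and the added 0.5 shrinks their log2 fold changes more.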

How the data were processed

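The deposited table gives FPKM per gene and library. The submitters' processing notes name STAR 2.7.3a, featureCounts 2.0.1 and the GRCh38 build, and for read quality FastQC 0.11.9 and, for trimming, Trimmomatic 0.39. Neither the annotation release nor the strand setting is stated there. Per the labels' protocols, RNA was extracted with TRIzol and libraries were stranded and mRNA-selected. FPKM of a gene depends on the reads of all other genes.

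From the FPKM the authors deposited, log2(FPKM + 0.5) was computed for the 12466 genes whose mean FPKM reached 0.5, and tested with limma 3.58.1 (R 4.3.3, intensity trend, 3 against 3 libraries, no covariate), with Benjamini-Hochberg adjustment over all of them. Python 3.11.15 with scipy 1.17.1 was used elsewhere, and the fit was tested on simulated data. FPKM values were whole multiples of a per-read value within 0.02 reads for 98.3% of genes and for all tested genes, which gave reads and depth. Recovered gene lengths were within 10% of GENCODE 29 for 88.1% of genes. GENCODE 29 lengths also set the depth and chose among possible lengths, so this figure is no independent check of the recovery. The GC and length correction removed a lowess trend (span 0.3) from each library, and with it the overall level of that library. Symbols and GC came from GENCODE 29, promoters from RefSeq.

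The members and lists were chosen with earlier results of these data known. Values in every library are given for TFEB and TFE3, members past the test, and otherwise the member with the smallest p of each class, and for up to 2 called genes per direction of each further list; RHEB, AP1B1, LAPTM4B and CTSF are given by fold change. MAN2B1, NEU1, GLA, LAMP1, GRN, PSAP, ATP6V0C and CTSZ were added after their values were seen. Alternatives were other pseudocounts, filters and scalings, left-out libraries, a replicate block and limma's voom on recovered reads.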

Additional observations from a re-analysis of the deposited data

How the results depend on the processing

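The direction of GAA was positive under all 19 alternatives (log2 fold change 0.41 to 0.77), and it passed the test under 11 (adjusted p 0.0114 to 0.198 over all 19). Members called higher, 1 in the analysis as reported, numbered 2 with quantile normalization, 3 with the GC and length correction, and 0 with median-of-ratios factors, with voom on recovered reads and those factors (chosen after seeing the data), with a replicate block and with that block plus the correction; leaving out 1 library gave 0 to 1. Members called lower, 0 as reported, numbered 1 with equal totals (ATP6V0D1), 1 with the GC and length correction (MCOLN1) and 1 without both replicate 1 libraries (MCOLN1); leaving out 1 library gave 0 to 0. The members' median, -0.05 as reported, was 0.070 with quantile normalization, 0.16 with median-of-ratios factors, 0.13 with the correction, with or without the replicate block, 0.065 without both replicate 1 libraries and 0.16 by voom with median-of-ratios factors; leaving out 1 library gave -0.12 to 0.04. The median of all tested genes, -0.15 as reported, was 0.02 with median-of-ratios factors and -0.01 with quantile normalization, and the members lay 0.01 to 0.18 above it in every fit. Of the 35 members, 18 changed sign in some fit, none of them while called. Of the further lists, the higher calls (2 as reported) numbered 1 without the low-value filter, 6 with quantile normalization, 6 with the correction, 0 with median-of-ratios factors, 0 with the replicate block with or without the correction, and 0 to 2 with 1 library left out. Their lower calls (7 as reported) numbered 3 without the filter, 0 with median-of-ratios factors, 2 without the intensity trend, 4 without both replicate 1 libraries, 0 with the replicate block with or without the correction, 3 by voom with median-of-ratios factors, and 0 to 4 with 1 library left out. Over all genes the replicate block left 0 calls. Same-numbered libraries did not deviate together (correlations -0.54, 0.07 and -0.45, and not every library correlated best with its own number). With 3 libraries per group, and opposite GC trends in sh-CFB 1 and sh-NC 1, these correlations cannot decide whether the numbers pair the libraries. The count over all 12466 tested genes, 929, moved too. It was 1101 with quantile normalization, 1351 with the correction, 206 with median-of-ratios factors, 318 by voom with those factors and 819 with equal totals. It was 531 without the intensity trend, 694 without both replicate 1 libraries, and 324 without the filter, over all genes of the table. With 1 library left out it was 511 without sh-CFB 1, 39 without sh-CFB 2 and 400 without sh-CFB 3. It was 249 without sh-NC 1, 20 without sh-NC 2 and 540 without sh-NC 3. The causes of these changes were not tested.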
